A study of Mus musculus with 2 samples.

Results

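General capillary endothelial cells line the alveolar capillaries of the lung next to a second capillary type, the aerocyte. They carry GPIHBP1, which anchors lipoprotein lipase on the capillary wall, and PLVAP, which forms the diaphragms of caveolae and fenestrae. In the lung they are known as the capillary cells that divide and renew the vessel bed, whereas aerocytes are thin cells specialised for gas exchange that carry *Car4*, *Apln* and *Ednrb*. Arteries are marked by gap junction and Notch genes such as *Gja5*, *Gja4* and *Hey1*, and lymphatic vessels by *Prox1* and *Ccl21a*.

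The cells came from whole lung of wild-type C57BL/6J mice at postnatal day 1, dissociated with enzymes, freed of red cells by lysis and captured by Drop-seq, a droplet method that counts unique molecular identifiers (UMIs, 1 per captured RNA molecule). No treatment, transgene or other condition was compared. There were 2 batches, from 2 individual mice per the study, so the batch was the unit of replication and n was 2. Batch was a term of each fit. A p-value therefore rested on how differences between groups of cells varied between these 2 libraries, not on the difference between the libraries.

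The general capillary-like cells were 435 of 2122 endothelial cells and of 8003 cells in all. They were chosen by measured UMIs: mitochondrially encoded RNA at most 10% of a cell's UMIs, at least 3 UMIs over *Pecam1*, *Cdh5*, *Egfl7*, *Cldn5* and *Ramp2*, no UMI of *Ptprc* (leukocytes) or *Epcam* (epithelium), fewer than 3 of *Col1a2* (fibroblasts), at least 2 over *Gpihbp1* and *Plvap*, and fewer than 2 over each of the aerocyte genes *Car4*, *Apln*, *Ednrb* and *Fibin* and the arterial genes *Gja5*, *Gja4*, *Bmx*, *Dkk2*, *Sema3g* and *Hey1*. These 20 genes were used by the rule and are described with no test. Batch 1 held 161 of the cells and Batch 2 held 274, and no cell barcode was found in both batches. The other 1687 endothelial cells were split into 727 aerocyte-like cells (at least 2 aerocyte UMIs and fewer than 2 arterial), 184 arterial-like cells (the reverse), 33 lymphatic-like cells (at least 2 UMIs over *Prox1*, *Ccl21a*, *Mmrn1* and *Reln*) and 743 remaining cells, which met none of these rules or met both the aerocyte and the arterial limit.

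A general capillary-like cell held a median of 1352 UMIs in Batch 1 and 1979.5 in Batch 2. Aerocyte-like cells were deeper, at 1763 and 2149 UMIs, and the remaining cells shallower, at 1204 and 1695.5. The summed depth behind the levels below was 298378 UMIs in Batch 1 and 637123 in Batch 2. All levels are UMIs of a gene per 1000000 UMIs of the class in that batch (CPM). In these sums fewer expressing cells and less RNA per cell cannot be told apart.

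The rule genes separated the classes as their choice required. *Gpihbp1* (chromosome 15, 75596628 to 75599481, plus strand, GRCm38) stood at 1139 CPM in Batch 1 and 956 CPM in Batch 2, against 376 and 407 CPM in the other endothelial cells and 32.3 and 21.7 CPM outside the endothelium. *Plvap* (chromosome 8, 71497765 to 71511752, minus strand, GRCm38) stood at 912 and 775 CPM, against 280 and 424 CPM in the other endothelial cells. Neither gene was confined to these cells, and arterial-like cells had 754 and 547 CPM of *Gpihbp1*. *Pecam1*, the adhesion molecule of all endothelium, was at 700.5 and 877 CPM, close to the 659 and 970.2 CPM of the other endothelial cells.

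*Ednrb*, the endothelin B receptor, still stood at 101 and 151 CPM in general capillary-like cells, where at most 1 aerocyte UMI was allowed, against 1141 and 1763 CPM in aerocyte-like cells. *Car4*, the membrane-bound carbonic anhydrase of aerocytes, was at 20.1 and 7.85 CPM, against 564 and 377 CPM. *Fibin* and *Dkk2* had no UMI in any of the 435 cells.

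**Figure D1:**
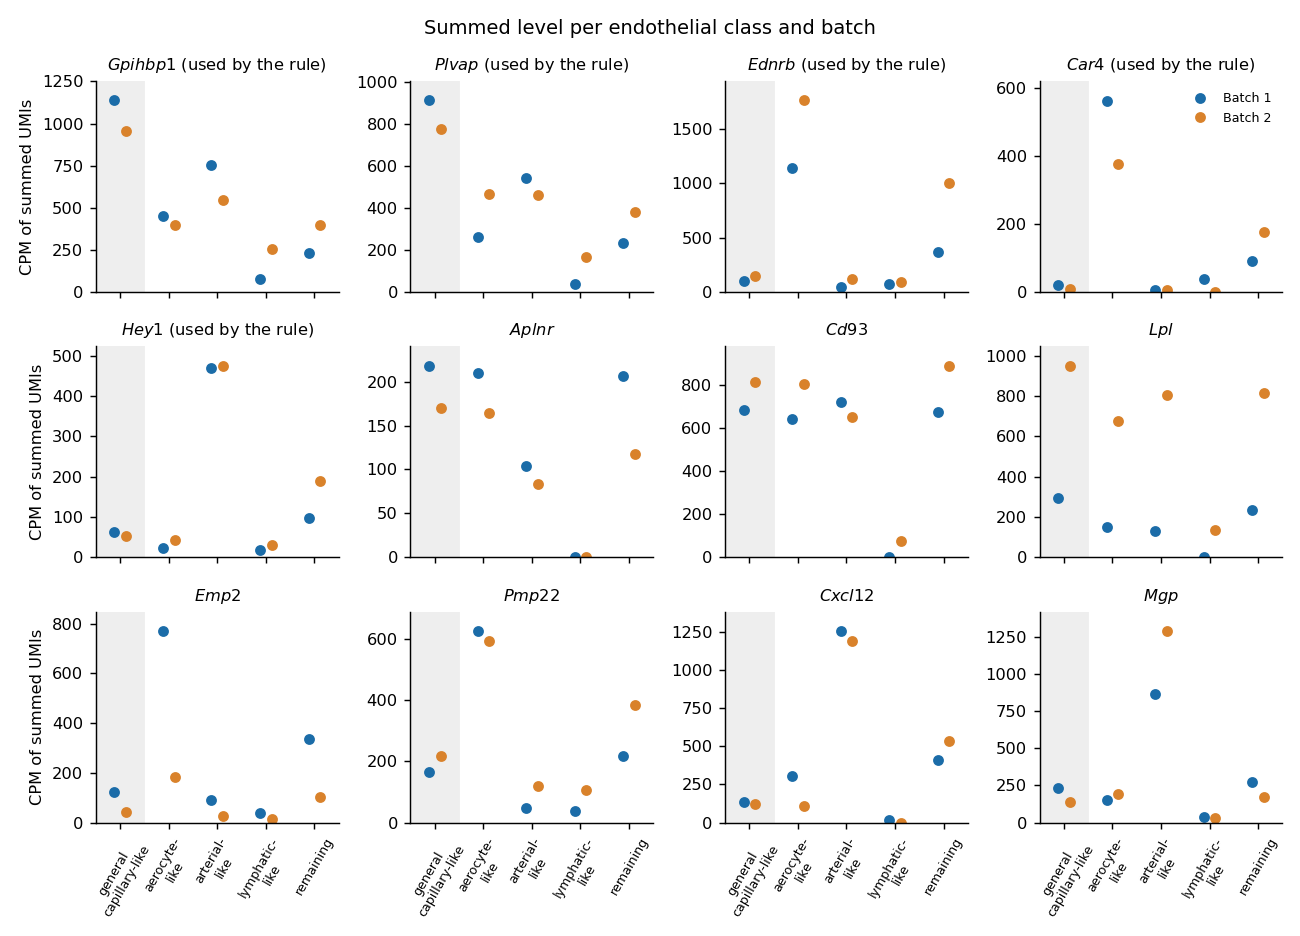
Level of 12 genes in the 5 endothelial classes, as CPM of the UMIs summed over the cells of a class (vertical axes, linear, from 0); each point is 1 batch and the grey band marks the general capillary-like cells. *Gpihbp1* at 1139 and 956 CPM is highest in the grey band by choice of the cells, while *Aplnr* and *Cd93* lie close to the aerocyte-like level in both batches and *Emp2*, *Pmp22*, *Cxcl12* and *Mgp* are lower than in the aerocyte-like or arterial-like cells.

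Among the 435 cells, 269 had UMIs of both *Gpihbp1* and *Plvap*, 92 had *Gpihbp1* only and 74 had *Plvap* only. The median was 3 UMIs over both genes in each batch and the highest cell had 17. Just inside the lower limit lay 148 cells with exactly 2 UMIs, and just outside it 252 endothelial cells with 1 UMI that met both upper limits. At the upper limits, 139 cells had 1 aerocyte UMI and 88 had 1 arterial UMI, while 85 cells were kept out by exactly 2 aerocyte UMIs alone.

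Of 1024 endothelial cells with at least 2 UMIs of *Gpihbp1* and *Plvap*, 344 were kept out by that limit alone, 94 by the arterial limit alone and 151 by both. The aerocyte limit alone kept out 17.5% of such cells in Batch 1 and 38.9% in Batch 2. UMIs per cell were also higher in Batch 2, and their part in this difference was not tested.

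The general capillary-like share of the endothelium was 26.7% in Batch 1 (161 of 604 cells, exact binomial 95% interval 23.2% to 30.4%) and 18.1% in Batch 2 (274 of 1518 cells, 16.1% to 20.1%). When each cell was thinned to 800 UMIs before the rule was applied, the shares were 21.1% (102 of 483 cells, 17.6% to 25.03%) and 15.6% (208 of 1334 cells, 13.7% to 17.7%). The share was lower in Batch 2 under both, and the 2 intervals at 800 UMIs overlapped only at their ends. The intervals cover counting error only. With 1 mouse a batch, no test of the difference was possible. Of all cells, the class made up 6.74% in Batch 1 and 4.88% in Batch 2.

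Cells with at least 2 UMIs over the S phase and G2/M phase gene lists, after thinning to 800 UMIs, were 17.1% of the general capillary-like cells in Batch 1 (25 of 146, exact binomial 95% interval 11.4% to 24.2%) and 41.4% in Batch 2 (111 of 268, 35.5% to 47.6%). Aerocyte-like cells stood at 18.1% (11.6% to 26.3%) and 44.2% (40.1% to 48.3%), and the remaining cells at 18.8% and 40.3%. Within a batch these 3 classes lay within each other's intervals, while the batches did not overlap. Thinning left out 15 and 6 cells with fewer UMIs; without it the shares were 42.2% and 74.1%. The shares count UMIs of listed genes and are no count of dividing cells. *Top2a*, the topoisomerase of dividing cells, stood at 57.0 and 47.1 CPM in general capillary-like cells and at 50.2 and 75.03 CPM in the other endothelial cells, and *Mki67* at 30.2 and 40.8 CPM against 22.9 and 50.6 CPM.

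**Figure D2:**
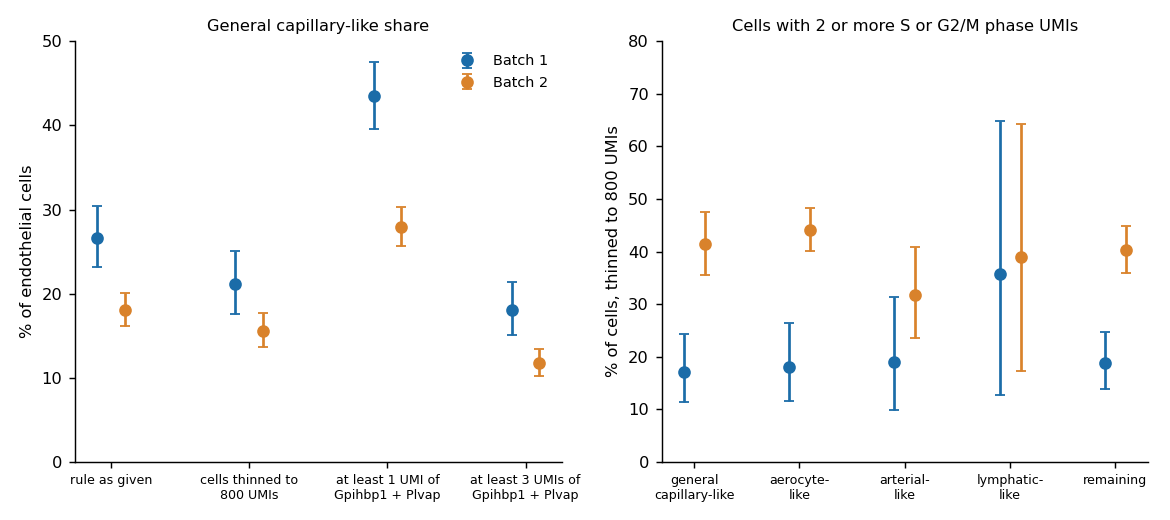
Left, the general capillary-like share of endothelial cells in percent under the rule, after thinning to 800 UMIs and with 1 or 3 UMIs of *Gpihbp1* and *Plvap* required; right, the percent of cells in each class with 2 or more cell cycle UMIs after thinning. Points are batches and bars exact binomial 95% intervals; at left Batch 1 (26.7% under the rule) lies above Batch 2 (18.1%) throughout, and at right Batch 2 lies above Batch 1 in all 5 classes, with wide bars for the lymphatic-like cells.

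The label was checked against general capillary genes that the rule did not use. Of 12 general capillary genes outside the rule that were tested against all other endothelial cells, 1 was higher and 2 were lower, with a median log2 fold change of 0.02, beside -0.0015 over all 7907 genes tested. Of those 7907 genes, 0.126% were higher and 0.683% lower. The 1 higher general capillary gene was *Lpl*, lipoprotein lipase, whose protein GPIHBP1 binds. *Aplnr*, the apelin receptor taken as a marker of these cells, was at 218 and 169.5 CPM against 179 and 134 CPM (log2 fold change 0.33, SE 0.16, edgeR quasi-likelihood adjusted p = 0.563). *Cd93*, *Kit*, *Tek*, *Ptprb* and *Eltd1* likewise did not pass. The lower genes were *Cxcl12*, highest in arterial-like cells, and *Sema3c*, a semaphorin at 204 and 102 CPM in general capillary-like cells and at 283 and 244 CPM in the remaining cells. *Sema3c*, which had no UMI in lymphatic-like cells, turned to a log2 fold change of 2.19 when the other classes were weighted equally (edgeR adjusted p = 0.173). The other endothelial cells included 252 with 1 UMI and 322 with no UMI of *Gpihbp1* and *Plvap* that met both upper limits. A further 344 had at least 2 such UMIs and were kept out by the aerocyte limit alone. Such cells may resemble the members, so this check could not decide the label. Since the listed genes did not set the members apart from other endothelium, the members are called general capillary-like by their rule.

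Against all other endothelial cells of the same batch, 10 genes (0.126% of 7907 tested) were higher and 54 (0.683%) lower in general capillary-like cells at an adjusted p under 0.05 (edgeR quasi-likelihood test, Benjamini-Hochberg). Of the 64 genes, 63 moved the same way in both batches. The lower genes follow in part from the choice of cells, since cells with aerocyte or arterial UMIs were put in the other group. With the 4 other classes weighted equally in place of pooled cells, 49 genes were higher and 5 lower, so the excess of lower genes turned, and with DESeq2 2 genes passed, both lower. None of the genes named below as turning to the higher side with equal weights passed an edgeR adjusted p of 0.05 on that side.

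All 10 higher genes moved by less than 1 log2 unit. None of them passed when mitochondrial RNA was limited to 5% (0 higher and 14 lower genes by edgeR, 495 at an unadjusted p under 0.05 in either direction) or was not limited (0 higher and 8 lower, 570 at an unadjusted p under 0.05), and DESeq2 called 0 higher (41 at an unadjusted p under 0.05 in either direction). *Lpl* was at 292 and 949.6 CPM, against 177 and 740.0 CPM in the other endothelial cells (log2 fold change 0.50, SE 0.11, edgeR adjusted p = 0.00268). Batch 1 lay below Batch 2 in both groups, and the general capillary-like level was the higher one within each batch. *Lyve1*, a hyaluronan receptor best known from lymphatics, was at 3077 and 6208 CPM, against 2406 and 4912 CPM (0.36, SE 0.08, edgeR adjusted p = 0.0038). Outside the endothelium it was at 139.5 and 202 CPM, and in arterial-like cells at 3558 and 5102 CPM. Against the lymphatic-like cells, at 2533 and 6926 CPM, the difference did not pass the threshold (log2 fold change 0.07, SE 0.17, edgeR adjusted p = 0.862).

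*Sparcl1*, a secreted matrix-associated protein of vessels, was at 878 and 1168 CPM against 674 and 861 CPM (log2 fold change 0.43, SE 0.09, edgeR adjusted p = 0.00105). Arterial-like cells held more of it, at 1011 and 1235 CPM. *Cyp1a1*, a target of the aryl hydrocarbon receptor, showed the highest fold change of the 10, at 77.1 and 155 CPM against 30.6 and 86.3 CPM (0.99, SE 0.22, edgeR adjusted p = 0.00109). *Tgfbi*, a matrix protein that is also abundant in myofibroblasts, was at 83.8 and 369 CPM against 63.3 and 222 CPM (0.69, edgeR adjusted p = 0.00481). The others were *Car2* (carbonic anhydrase 2), *Csrp2* (a LIM domain protein), *Gng2* (a G protein subunit) and the ribosomal protein genes *Rps6* and *Rpl22*, with log2 fold changes of 0.34 to 0.83.

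Of 12 tested aerocyte genes outside the rule, 7 were lower and none higher (median log2 fold change -0.62), and of 16 arterial genes, 4 were lower and none higher (median -0.37). Over all genes tested, 0.126% were higher and 0.683% lower. With the classes weighted equally 5 of the 7 aerocyte genes turned to the higher side (*Tbx2*, *Pmp22*, *Prx*, *Kitl* and *Nrp1*, by 0.036 to 1.98 log2 units), as did *Jag1* of the 4 arterial genes (0.67). *Cxcl12*, the chemokine that binds CXCR4, was at 137 and 121 CPM, against 484 and 379.5 CPM (-1.70, SE 0.15, edgeR adjusted p = 1.2e-24). *Emp2*, a tetraspan membrane protein, was at 124 and 42.4 CPM against 420.5 and 133 CPM (-1.70, SE 0.19, edgeR adjusted p = 1.7e-15). *Igf2*, the imprinted fetal growth factor, was at 57.0 and 113 CPM against 208 and 299 CPM (-1.50, SE 0.18, edgeR adjusted p = 1.4e-13). Aerocyte-like cells were near the general capillary-like level of *Igf2* in Batch 1, at 57.4 and 177 CPM, and remaining cells held 87.9 and 212 CPM. Arterial-like cells held 512 and 1014 CPM and lymphatic-like cells 1146 and 2349 CPM. In all 3 genes both general capillary-like sums lay below both sums of the other cells.

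In some of the lower genes 1 cell held most of the other group's UMIs in a batch. *Pf4*, a platelet chemokine, was at 13.4 and 6.28 CPM, against 393 CPM in Batch 1 and 7.71 CPM in Batch 2 (log2 fold change -3.86), and 1 cell held 96.1% of the other group's *Pf4* UMIs in Batch 1, where the lymphatic-like class stood at 6397 CPM. *Thbs1*, thrombospondin, at 3.35 and 7.85 CPM against 141 and 14.4 CPM, had 82.2% in 1 cell of Batch 1 and 14.3% in the highest cell of Batch 2. In *S100a9* and *BC100530*, known from neutrophils, 1 cell held 64.1% of the other group's UMIs in Batch 2. No fit without these cells was run. *S100a9* turned to 1.20 with the classes weighted equally.

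**Figure D3:**
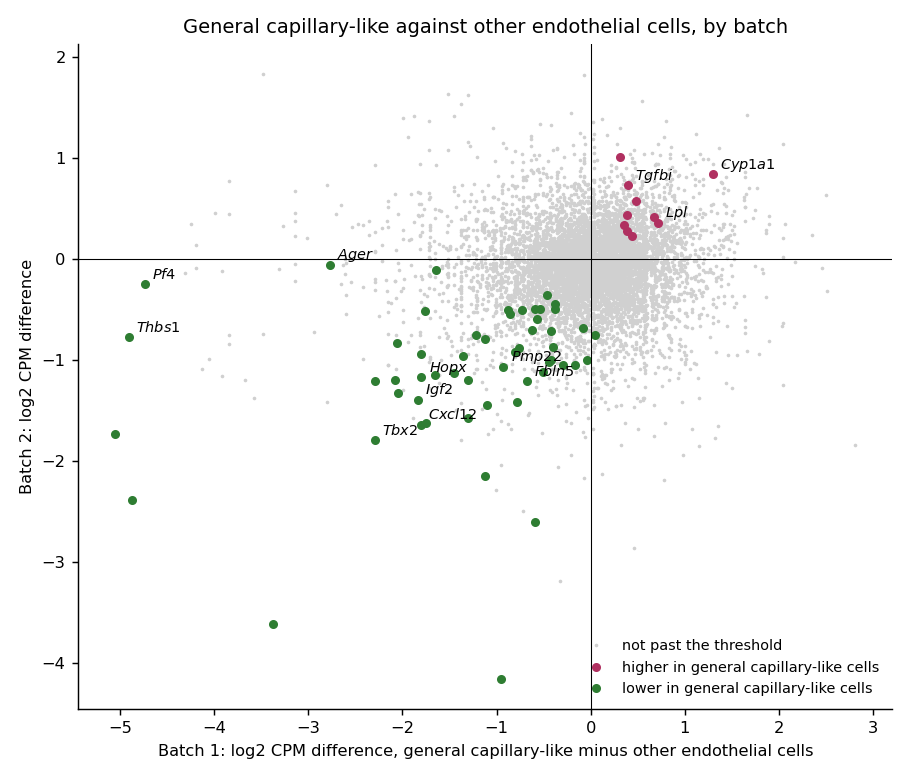
Difference in log2 CPM between general capillary-like and other endothelial cells in Batch 1 (horizontal) and Batch 2 (vertical) for the 7907 tested genes; coloured points passed an edgeR adjusted p of 0.05. The 10 higher genes lie near the centre in the upper right and the 54 lower genes reach farther out at lower left, while *Pf4* and *Ager* lie far out in Batch 1 and near 0 in Batch 2.

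RNA of other cell types also differed between the groups and between batches. Of 11 tested epithelial marker genes, 3 were lower and none higher (median log2 fold change 0.22), beside 0.683% lower and 0.126% higher over all genes tested. *Ager*, the receptor that marks alveolar type 1 cells, was at 57.0 and 39.2 CPM in general capillary-like cells, against 398 CPM in Batch 1 and 40.9 CPM in Batch 2. *Cldn18*, an epithelial claudin, was at 57.0 and 20.4 CPM against 181 and 22.1 CPM, and turned to a log2 fold change of 0.26 with the classes weighted equally. For both genes the difference lay in Batch 1. Summed over 14 epithelial genes, with *Epcam* at 0 by the rule, the level was 3298 and 2686 CPM in general capillary-like cells and 5093 and 1679 CPM in the other endothelial cells, against 30125 and 43949 CPM outside the endothelium. *Sftpc*, the surfactant gene of alveolar type 2 cells, alone gave 2611 and 1778 CPM in general capillary-like cells and 22441 and 26811 CPM outside the endothelium. *Hopx*, which alveolar type 1 cells also hold at high level, was at 53.6 and 37.7 CPM against 190.0 and 86.6 CPM (edgeR adjusted p = 1.5e-06). The part of epithelial RNA in these differences was not tested.

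Erythroid RNA was high throughout, at 50677 and 25827 CPM over 7 genes, against 81041 and 14373 CPM in the other endothelial cells; none of 6 tested erythroid genes passed (median 0.11). Fibroblast and mural genes summed to 318 and 461 CPM, against 434 and 336 CPM, with *Tgfbi* as the 1 of 7 tested that was higher (median -0.33). Immune genes summed to 208 and 173 CPM, against 340 and 303 CPM, with *Ptprc* at 0 by the rule and *S100a9* lower as 1 of 3 tested (median -0.98). These counts, too, stand beside 0.126% higher and 0.683% lower over all genes tested. The part of these cell types in the results was not tested.

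The counts of the wider lists stand beside 0.126% higher and 0.683% lower over all genes tested. Of 38 endothelial transcription factors 3 were lower (*Klf4*, *Tbx2* and *Hopx*) and none higher, with a median log2 fold change of -0.012. *Klf4*, which responds to shear stress, was at 516 and 978 CPM against 752 and 1374 CPM (-0.49, SE 0.10, edgeR adjusted p = 1.2e-04). With the classes weighted equally *Klf4* turned to 0.44 and *Tbx2* to 0.15. *Sox17* and *Foxf1* did not pass, at 523 and 326 CPM against 417 and 443 CPM for *Sox17* and 295 and 207 CPM against 273 and 300.1 CPM for *Foxf1*.

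Of 13 VEGF, angiopoietin and apelin genes, 2 were lower (median 0.04). They were *Nrp1*, a VEGF co-receptor, at 469 and 352 CPM against 708 and 496 CPM (log2 fold change -0.52, edgeR adjusted p = 0.00129), and *Vegfa* itself, at 50.3 and 22.0 CPM against 131 and 44.2 CPM (-1.19). Both turned to the higher side with the classes weighted equally (0.23 and 0.94), and so did *Calcrl* (0.55) and *Jag1* (0.67). Of 21 vasoactive genes 1 was lower (median -0.11), which was *Calcrl*, the receptor of adrenomedullin. *Calcrl* was also the 1 gene of the 64 whose batches disagreed, at 1199.8 and 604 CPM against 1163 and 1019 CPM. In the Notch pathway 1 of 11 was lower (*Jag1*, median -0.14), and none of 19 BMP and TGF-beta pathway genes passed (median -0.10).

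Of 11 lipid genes *Lpl* alone was higher (median 0.06), and *Cd36*, the fatty acid transporter, was at 1294 and 1174 CPM against 1096 and 1384 CPM (edgeR adjusted p = 0.999). Among 22 basement membrane genes, *Sparcl1* was higher, and *Igfbp7* and *Timp3*, an inhibitor of matrix proteases, were lower (median -0.033). Of 14 caveola and endocytosis genes and of 18 adhesion genes 1 each was lower, the water channel gene *Aqp1* and *Cxcl12* (medians -0.014 and -0.021). None of 19 antigen presentation genes passed (median 0.03). Of 18 immediate early genes 1 (*Klf4*) and 1 of 9 heat shock genes (*Hspb1*) were lower (medians -0.19 and -0.049). None of the 18 immediate early genes, which tissue dissociation is also known to induce, had a log2 fold change above 0, nor had any of the 16 tested against aerocyte-like cells (median -0.19). This did not hold against the other classes. Against arterial-like cells 8 of 16 lay above 0 (median 0.0072). Against lymphatic-like cells 11 of 16 did, with 4 called higher (median 0.58). The summed level of all 21 listed immediate early genes was 2829 and 6638 CPM against 3049 and 7956 CPM in the other endothelial cells. With the classes weighted equally *Hspb1* turned to 0.54 and *Aqp1* to 0.20. None of 12 S phase or 17 G2/M phase genes passed (medians -0.27 and 0.16). Among 10 venous and 13 lymphatic genes the single higher one was *Lyve1*, which is in both lists (medians 0.25 and 0.28).

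Set against aerocyte-like cells alone, 1 gene (0.0166% of 6040 tested) was higher and 14 (0.232%) lower. The fits against single classes use the same general capillary-like sums, so they are not independent of each other. Of 12 aerocyte genes outside the rule 6 were lower and none higher, with a median log2 fold change of -1.02, beside -0.013 over all genes tested. Both classes were chosen by their aerocyte UMIs, so lower aerocyte genes follow in part from the choice of cells. None of 11 general capillary genes passed (median 0.05). *Aplnr* stood at 218 and 169.5 CPM against 209 and 164 CPM (0.05, SE 0.21), and *Lpl* at 292 and 949.6 CPM against 152 and 679 CPM (0.65, SE 0.18, edgeR adjusted p = 0.263).

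*Pmp22*, a tetraspan protein of the *Emp2* family, was at 164 and 217 CPM against 628 and 594 CPM in aerocyte-like cells (log2 fold change -1.66, SE 0.21, edgeR adjusted p = 3.5e-04). *Emp2* was at 124 and 42.4 CPM against 769.8 and 185 CPM (-2.39, SE 0.22, edgeR adjusted p = 2.3e-06). *Igfbp7*, a secreted binding protein, was at 349 and 325 CPM against 979 and 624 CPM (-1.17, SE 0.18, edgeR adjusted p = 0.00273). In each of the 3 genes the general capillary-like sum was lower in both batches.

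*Tbx2*, a T-box transcription factor, was at 13.4 and 7.85 CPM against 142 and 39.1 CPM (log2 fold change -2.80, SE 0.50, edgeR adjusted p = 0.0142). *Prx* (periaxin) and *Kitl* (the ligand of KIT) were lower, with log2 fold changes of -1.21 and -0.88. Outside the aerocyte list, *Timp3*, *Hopx*, *Tppp3*, *Hspb1*, *Syn3*, *Klf4*, *Clic5* and *Ccdc68* were lower. *Ager* stood beside these at 57.0 and 39.2 CPM in general capillary-like cells and at 493 and 41.8 CPM in aerocyte-like cells, and *Hopx* at 53.6 and 37.7 CPM against 321 and 112 CPM. The part of alveolar type 1 RNA in these differences was not tested. The single higher gene, *Gm21541*, is a copy of the *Ccl21* gene that cannot be told apart with certainty from its relatives, and is taken up with the lymphatic RNA below.

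Set against arterial-like cells, 7 genes (0.116% of 6040) were higher and 27 (0.447%) lower. Of 17 arterial genes outside the rule 7 were lower and none higher (median log2 fold change -1.31, beside 0.0046 over all genes tested). Here too the choice of both classes, by arterial UMIs, accounts for part of this. Of 11 general capillary genes 1, *Cxcl12*, was lower, and none of 12 aerocyte genes passed (median 0.43).

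*Mgp*, matrix Gla protein, was at 235 and 135 CPM against 865 and 1290.0 CPM (log2 fold change -2.69, SE 0.25, edgeR adjusted p = 8.2e-07). *Fbln5*, a fibulin of elastic fibres, was at 124 and 76.9 CPM against 263 and 547 CPM (-2.21, SE 0.30, edgeR adjusted p = 2.3e-04). *Jag1*, a Notch ligand, was at 13.4 and 39.2 CPM against 152 and 246 CPM (-2.85, SE 0.36, edgeR adjusted p = 1.4e-04). These matrix and Notch genes were lower in both batches, as were *Ltbp4*, *Tm4sf1*, *Stmn2* and *Cytl1* of the same list.

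*Igf2* was at 57.0 and 113 CPM against 512 and 1014 CPM in arterial-like cells (log2 fold change -3.19, SE 0.21, edgeR adjusted p = 3.1e-09), and *H19*, the imprinted long non-coding RNA next to it on chromosome 7, at 107 and 111 CPM against 623 and 854 CPM (-2.82, SE 0.39, edgeR adjusted p = 2.4e-04). *Cxcl12* was at 137 and 121 CPM against 1253 and 1192 CPM (-3.27). *Mecom*, a zinc finger transcription factor of arterial cells, was at 13.4 and 20.4 CPM against 90.0 and 258 CPM (-3.41). *S100a4* had no UMI in the 435 cells and 30 UMIs in the arterial-like cells, which made it at least 19.9-fold lower against a floor of 3 UMIs over both batches.

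Higher than in arterial-like cells were *Cyp1a1*, at 77.1 and 155 CPM against 0 and 39.9 CPM (2.30, SE 0.46, edgeR adjusted p = 0.0174), and *Tgfbi*, at 83.8 and 369 CPM against 6.92 and 135 CPM (1.56, SE 0.31, edgeR adjusted p = 0.0151). *Cxx1a* and *Cxx1b*, 2 near-identical retrotransposon-derived genes whose reads may be shared, were higher by 0.65 and 0.70. *Nr2f2*, the venous transcription factor, was at 127 and 121 CPM against 41.5 and 33.8 CPM and did not pass (1.72, SE 0.47, edgeR adjusted p = 0.158).

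**Figure D4:**
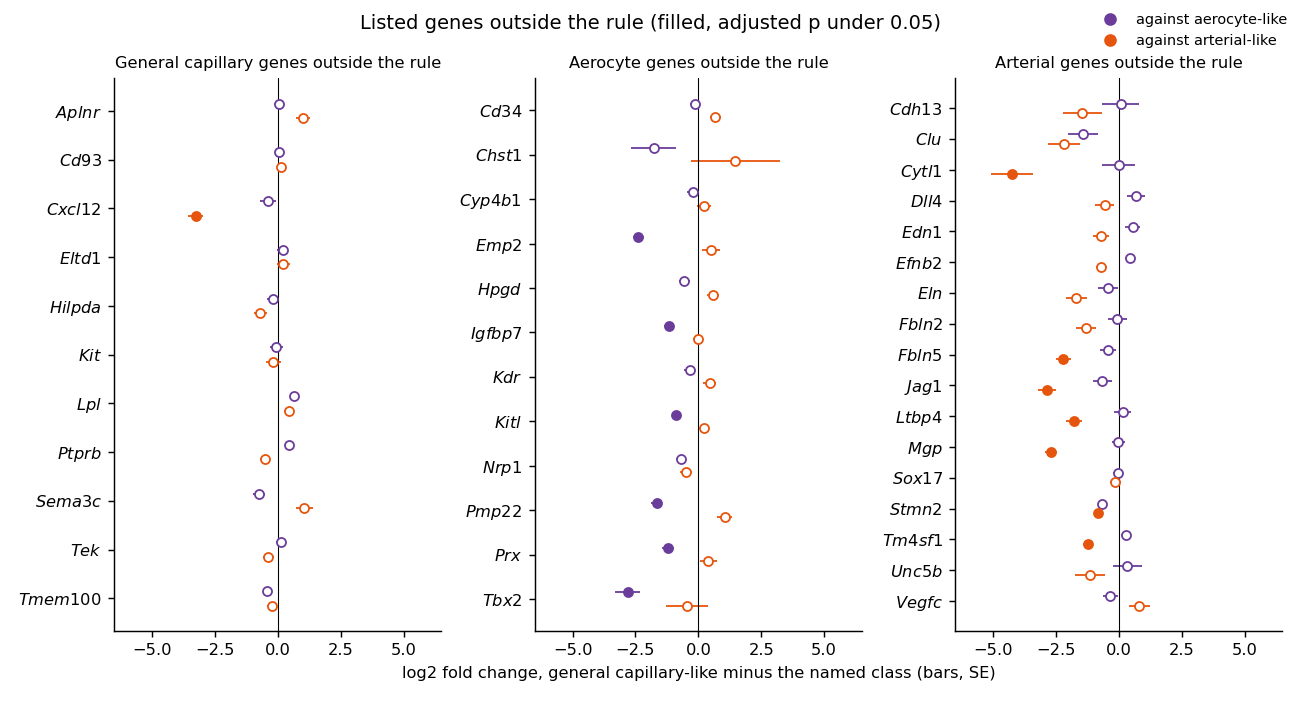
Log2 fold change with SE of listed genes outside the rule, general capillary-like minus aerocyte-like cells (purple) and minus arterial-like cells (orange); filled points passed an edgeR adjusted p of 0.05. Most general capillary genes lie near 0 against either class, aerocyte genes such as *Emp2* (-2.39) lie left of 0 against aerocyte-like cells, and arterial genes such as *Mgp* (-2.69) lie left of 0 against arterial-like cells.

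The lymphatic-like cells stood farthest away, with 279 genes (4.62% of 6040) higher and 210 (3.48%) lower in general capillary-like cells, although that group had only 14 and 19 cells. The lymphatic-like class held 6397 CPM of the platelet gene *Pf4* in Batch 1 and 0 CPM in Batch 2, and 2089 and 75.8 CPM of *Thbs1*. The part of such RNA in these counts was not tested. The median log2 fold change over all genes tested was 0.14. Here the general capillary genes did separate: 9 of 11 were higher and none lower, with a median of 4.18, or 2.89 with genes that had no lymphatic-like UMI set to their lower bound. Of the same 11 genes none was higher against aerocyte-like or arterial-like cells. Other blood endothelial lists were also higher than in lymphatic-like cells. Of 12 aerocyte genes outside the rule 6 were higher and none lower (median 2.17, or 1.56 with the same bound). Of 17 arterial genes 6 were higher and 2 lower.

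*Cd93*, a receptor of blood endothelium, was at 684 and 815 CPM against 0 and 75.8 CPM (log2 fold change 4.23, SE 0.43, edgeR adjusted p = 6.4e-07). *Cd36* was at 1294 and 1174 CPM against 74.0 and 197 CPM (3.17, SE 0.27, edgeR adjusted p = 5.3e-08). *Aplnr* had 173 UMIs against none, at least 7.40-fold higher, and *Tbx3*, a T-box factor, had 270 UMIs against none, at least 11.6-fold higher, with the same floor. *Cyp1a1* had 122 UMIs against none and was at least 5.22-fold higher. Aerocyte-like cells held 571 and 472 CPM of *Tbx3* and 37.1 and 108 CPM of *Cyp1a1*.

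Of 9 tested lymphatic genes outside the class rule 8 were lower. They include *Ccl21b*, at 63.7 and 34.5 CPM against 1424 and 834 CPM. It is a relative of *Ccl21a*, by which lymphatic-like cells were chosen, so it is not independent of the class rule. *Flt4*, the receptor of VEGF-C, was at 43.6 and 113 CPM against 388 and 712 CPM (log2 fold change -2.75, SE 0.32, edgeR adjusted p = 4.9e-06). *Maf* was at 127 and 87.9 CPM against 629 and 1318 CPM (-3.19). *Igf2* was at 57.0 and 113 CPM against 1146 and 2349 CPM. *Lyve1* was the exception, with values given above.

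Lymphatic RNA entered the general capillary-like group through 7 cells. With 3 cells in Batch 1 and 4 in Batch 2, the cells with 2 or more UMIs over the 4 lymphatic genes held all 167 and 182 *Ccl21a* UMIs of the group, so the other 428 cells had none. *Gm21541* was found in 3 and 4 cells and *Gm13304* in 3 and 5. Without these 7 cells *Gm21541* turned lower than in aerocyte-like and arterial-like cells, and its call and those of *Gm13304* and *Ccl21b* against arterial-like cells therefore rested on these cells. The rule sets no lymphatic limit, and 5 of the 7 had *Gpihbp1* and no *Plvap*.

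The 74 cells with *Plvap* only were compared with the 92 cells with *Gpihbp1* only, in sums of 53554 and 107748 UMIs against 70789 and 110439 UMIs. Of 2375 genes tested, 6 (0.253%) were higher and 5 (0.211%) lower in the *Plvap*-only cells. Absence of a UMI is weak evidence of absence in single cells of this depth, so both groups may hold cells that carry both genes.

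*Mgp* was at 448 and 445 CPM in *Plvap*-only cells and at 56.5 and 9.05 CPM in *Gpihbp1*-only cells (log2 fold change 4.01, SE 0.57, edgeR adjusted p = 0.00302). *Car8*, a carbonic anhydrase-related protein, was at 280.1 and 223 CPM against 28.3 and 0 CPM, with 39 UMIs against 2. *Fbln5* was at 542 and 176 CPM against 28.3 and 36.2 CPM (3.19, SE 0.67, edgeR adjusted p = 0.0466). The *Plvap*-only sums lay above the *Gpihbp1*-only sums in both batches for all 3 genes. Few cells held these UMIs. Among all general capillary-like cells *Mgp* was found in 17 and 27 cells, and the highest cell held 35 and 32 UMIs. The Batch 1 cell with 35 UMIs was in neither group, since *Plvap*-only cells held 24 *Mgp* UMIs there and *Gpihbp1*-only cells 4. *Fbln5* was found in 11 and 25 cells (highest 13 and 8 UMIs) and *Car8* in 14 and 16 (highest 5 and 6). The part of single cells in these differences was not tested.

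*Fstl1*, a secreted follistatin-like protein, was at 784 and 863 CPM against 226 and 308 CPM (log2 fold change 1.59, SE 0.26, edgeR adjusted p = 0.00588), and *Cd9*, a tetraspanin, at 896 and 1179 CPM against 452 and 453 CPM (1.21, SE 0.21, edgeR adjusted p = 0.0111). *Fam101b*, a regulator of actin, was higher too (2.68). *Sepp1*, the selenium carrier selenoprotein P, was lower in *Plvap*-only cells, at 373 and 613 CPM against 1144 and 1331 CPM (-1.33, SE 0.21, edgeR adjusted p = 0.00588). Of 9 tested genes each of the arterial and the venous list, 2 and none were higher; *Mgp* and *Fbln5* were the 2.

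*H19*, *Ccl21a*, *Gm13304* and *Gm21541* were lower in *Plvap*-only cells, where none had a UMI. *H19* had 75 UMIs in the *Gpihbp1*-only cells, at least 22.3-fold more than the floor of 3 UMIs over both batches. All 75 lay in the 5 *Gpihbp1*-only cells with lymphatic UMIs, since the other 36 and 51 *Gpihbp1*-only cells had none.

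Without the cells with lymphatic UMIs, an alternative chosen after these values were seen, 11 genes were higher and 4 lower of 2261 tested, and *Mgp*, *Fbln5*, *Car8*, *Fam101b*, *Fstl1*, *Cd9* and *Sepp1* all passed again. *Prss23*, a serine protease of the venous list, was then at 392 and 566 CPM against 175 and 149.7 CPM (log2 fold change 1.66, SE 0.36, edgeR adjusted p = 0.0045), and *Fbln2* at 504 and 297 CPM against 38.9 and 79.8 CPM (2.47). *Clec1a*, a C-type lectin receptor of endothelium, was lower, at 280.1 and 325 CPM against 777 and 858 CPM (-1.41), as was *Sparcl1*, at 542 and 548 CPM against 1011 and 1108 CPM (-0.97). These 4 genes were named after their values were seen.

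**Figure D5:**
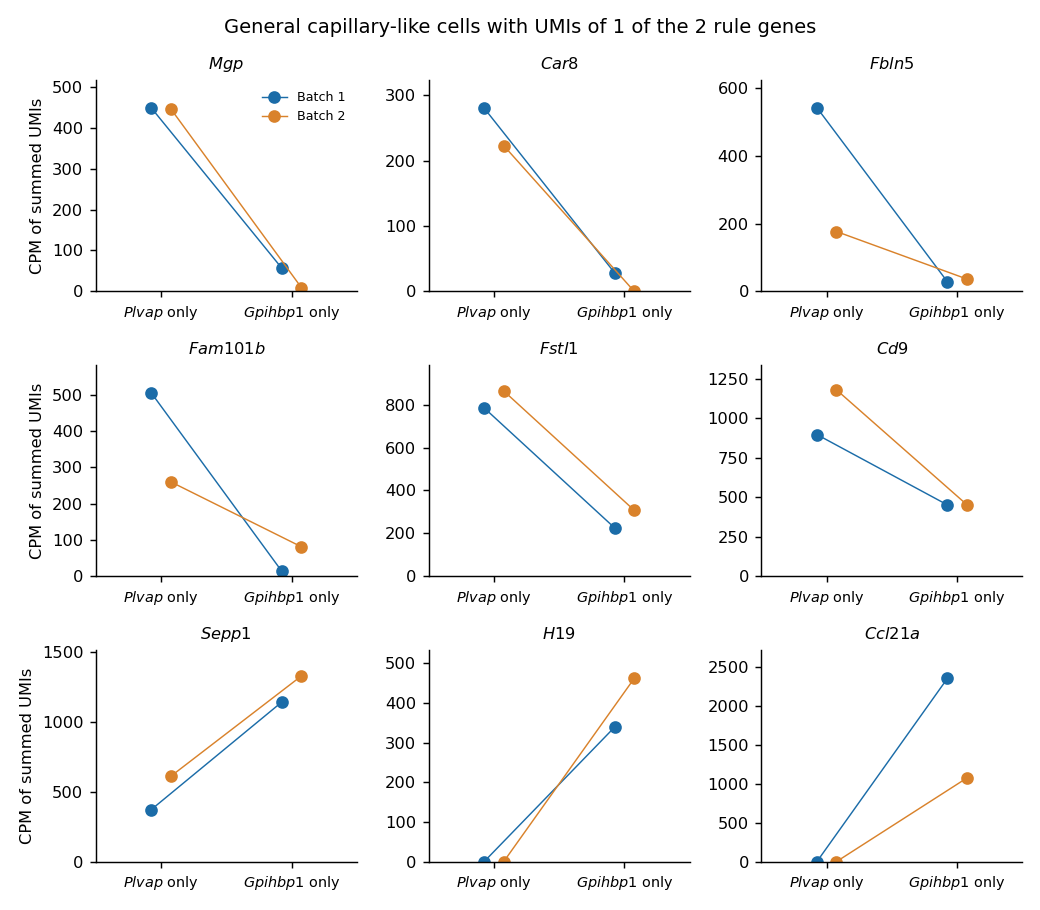
Levels of 9 genes as CPM of summed UMIs (vertical axes, linear, from 0) in *Plvap*-only and *Gpihbp1*-only general capillary-like cells; each line joins the 2 groups of 1 batch. *Mgp*, *Car8*, *Fbln5*, *Fam101b*, *Fstl1* and *Cd9* fall from left to right in both batches, *Sepp1* rises, and *H19* and *Ccl21a* have no UMI at left.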

How the data were processed

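The 2 UMI count tables of Drop-seq libraries from whole newborn lung were 1 per batch, with genes in rows and cells in columns. Per the labels and the study's methods, the authors aligned reads with Bowtie2 2.2.7 to mm10 and deposited raw whole-number UMI counts per gene and cell; the lowest gene number of any cell was 500. The gene annotation was not given in the sources used here, and coordinates are from GENCODE M21 on GRCm38.

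Of 9944 deposited cells, 8003 with mitochondrially encoded RNA at most 10% of UMIs were kept. The members and gene lists were chosen with earlier results of these data known. No doublet caller was run: the limits on *Ptprc*, *Epcam* and *Col1a2* were used, and cells of the highest 5% of UMIs were left out as an alternative. Counts were summed per class and batch and tested with edgeR 4.0.16 (R 4.3.3): filterByExpr, TMM, quasi-likelihood F test with batch as a block, Benjamini-Hochberg over all genes tested. The SE is the log2 fold change over the root of F. Rule genes were dropped from the tests after normalization, and so were the 4 lymphatic class genes in the fits against single classes. The fit over all 5 classes shared 1 estimate of spread. Classes of 1 batch come from 1 mouse and library, which pairs them; their deviations between batches correlated at 0.12 to 0.57 over genes. Tested on simulated data for the comparison with all other endothelial cells, the fit found 42 of 98 genes changed by 1 log2 unit and 86 of 98 changed by 2, with 1 wrong call of 129. For the fit over classes it found 42 of 88 and 88 of 91, with 4 wrong calls of 134, and for *Plvap*-only against *Gpihbp1*-only cells 31 of 96 and 65 of 89, with 6 wrong calls of 102. Each simulated gene had 1 mean over both batches, and all genes shared 1 spread. Shifts between batches, spread that differs by gene and single cells with many UMIs were not simulated. The wrong calls in the real data may therefore be more frequent.

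Named genes were the 10 with the largest change in each direction among those with adjusted p under 0.05, the same direction in both batches and a mean of at least 50 CPM in the higher class, plus members of the gene lists, those past the threshold first. Alternatives were DESeq2 1.42.0, other filters and scalings, other limits of the rule, no block and each batch alone. Thinning used 800 UMIs. The sums per class ranged from 54090 to 1816845 UMIs, with the lymphatic-like sums the smallest. Per cell the lymphatic-like class was the deepest, at medians of 2712 and 3109 UMIs.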

Additional observations from a re-analysis of the deposited data

Results flagged for a closer look

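In Batch 2, 69 cells met the general capillary rule but had more than 10% mitochondrially encoded RNA (median 12.3%, median 1710 UMIs), and they entered no comparison. Batch 1 had 0 such cells. Batch 2 held 1940 cells above the limit and Batch 1 held 1. They were singled out because they carry the signal outside the cells used.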

How the results depend on the processing

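Counts of genes past the threshold depended on the model. Without the replicate block, none passed against other endothelial, aerocyte-like or arterial-like cells or between *Plvap*-only and *Gpihbp1*-only cells (0 by edgeR, with 89, 62, 151 and 103 at an unadjusted p under 0.05), and 170 passed against lymphatic-like cells; pairing by library is part of the design. DESeq2 called 2, 5, 20 and 2 genes in the first 4. Against other endothelial cells, the count of 64 became 42 with 3 UMIs of *Gpihbp1* and *Plvap*, 36 with no aerocyte or arterial UMI, 14 with at most 5% mitochondrial RNA, 8 without that limit and 97 without lymphatic-like cells. Against aerocyte-like cells, 15 became 9 with no aerocyte or arterial UMI, 36 without a filter and 44 without the deepest 5% of cells. Against arterial-like cells, 34 became 20 at 5% mitochondrial RNA and 63 without a filter. Between *Plvap*-only and *Gpihbp1*-only cells, 11 became 30 without a filter and 26 without the mitochondrial limit.

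With classes weighted equally, which gives 33 lymphatic-like cells the weight of any class, 14 of the named lower genes turned higher than the mean of the others: *Tbx2* 0.15, *Aqp1* 0.20, *Calcrl* 0.55, *Cldn18* 0.26, *Hspb1* 0.54, *Jag1* 0.67, *Kitl* 0.87, *Klf4* 0.44, *Nrp1* 0.23, *Pmp22* 0.036, *Prx* 1.98, *S100a9* 1.20, *Sema3c* 2.19 and *Vegfa* 0.94. None of these 14 values passed an edgeR adjusted p of 0.05 (0.107 to 0.986). *Jag1*, *Prx*, *S100a9*, *Sema3c*, *Tbx2* and *Vegfa* had no UMI in lymphatic-like cells, so the size of their values is uncertain. *S100a9* was also higher against the 3 named classes (0.12, edgeR adjusted p = 0.996), and *Calcrl* ranged from -0.75 to 0.045 with 1 batch left out. Without the 7 cells with lymphatic UMIs, an alternative added after seeing the data, *Gm21541* turned to -9.50 against aerocyte-like and -8.06 against arterial-like cells, *Gm13304* to -5.26 and *Ccl21b* to -3.46.

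The pooled share of 20.5% ranged from 18.1% to 26.7% with 1 batch left out, and was 32.4% with 1 UMI of *Gpihbp1* and *Plvap* and 13.5% with 3. The cell cycle share of 32.9% was 62.3% without thinning, 65.0% with 1 UMI and 56.8% with 1 UMI of the G2/M list; with 1 batch left out it ranged from 17.1% to 41.4%. The median UMIs per cell ranged from 1352 to 1979.5. No count of genes could be tested with 1 batch left out. Over 107 named pairs of gene and comparison, the alternatives with a test gave 858 values that kept direction and call, 358 that lost the call and 19 that reversed; in 1 batch alone, with no test, 131 values stayed within the batch spread, 82 moved beyond it and 1 reversed.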
